A study of Mus musculus with 2 samples.

Results

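The 7 genes described here encode the MHC class II presentation machinery and its regulator: Cd74, H2-Aa, H2-Ab1, H2-Eb1, H2-DMa, H2-DMb1 and Ciita. They were picked by symbol from the 27998 genes of the count matrices, and all 7 were found there. The list was drawn up with the whole-library ratio of Tipe0-/- to WT already known to be low for these genes, so their ratios between the genotypes are given as a description and not as a test. The data are 2 droplet-based sc-RNASeq libraries of ileal epithelium from C57BL/6 mice aged 8 weeks, 1 of WT mice and 1 of Tipe0-/- mice, which lack Tnfaip8, the gene of the TIPE0 protein. No treatment is named for either group, and cells of 3 mice were pooled for each genotype before sequencing, so no spread between mice can be measured and every interval below covers counting error only. Whether the WT mice were littermates of the Tipe0-/- mice, and which part of Tnfaip8 is deleted, is not given in the sources used here. The methods of the study give WT mice as purchased or as bred in house, without saying which were used for this library. A difference in the source of the mice could not be told apart from genotype here.

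MHC class II molecules display peptides from endosomes to CD4+ T cells. B cells, dendritic cells and macrophages carry them at all times, while other cells, including those of the gut epithelium, can make them under the influence of interferon gamma. An alpha and a beta chain pair in the endoplasmic reticulum with the invariant chain, travel to the endosome, and receive a peptide there with the help of the DM heterodimer. The whole set is switched on by CIITA, a co-activator that does not bind DNA itself but docks on RFX, CREB and NF-Y proteins sitting on short conserved boxes in front of each class II gene. In the small intestine, class II transcripts have been described in crypt stem cells as well as in absorptive cells of the villus.

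H2-Aa encodes the alpha chain and H2-Ab1 the beta chain of the A molecule, and H2-Eb1 encodes the beta chain of the E molecule. The gene of the E alpha chain has the symbol of a pseudogene, H2-Ea-ps, and is not in the count matrices. Transcripts of H2-Eb1 therefore do not show that an E molecule was made. H2-DMa and H2-DMb1 encode the chains of the peptide loader DM. Cd74 encodes the invariant chain and Ciita the co-activator.

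The chain genes had similar ratios between the libraries, and the stretches in front of their start sites are shown for H2-Aa and H2-Eb1, a member with a consensus cyclic AMP response element and a member with both classical boxes. They are the 120 bases upstream of the RefSeq start site in GRCm38.p6, at chr17:34287824-34287943 on the minus strand for H2-Aa and at chr17:34305747-34305866 on the plus strand for H2-Eb1, written 5′ to 3′. Capitals mark matches to the Y box letters TGATTGG, to the X box letters (AAC and ATGATG with any 2 bases between them) or to TGACGTCA, none of which overlap.
H2-Aa upstream: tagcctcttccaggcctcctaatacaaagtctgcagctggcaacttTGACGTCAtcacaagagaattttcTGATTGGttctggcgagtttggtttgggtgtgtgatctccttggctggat
H2-Eb1 upstream: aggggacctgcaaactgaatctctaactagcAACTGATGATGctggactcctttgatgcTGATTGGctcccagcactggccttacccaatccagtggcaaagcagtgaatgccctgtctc
In H2-Eb1 the X box began 89 bases and the Y box 61 bases before the start, with 17 bases between them. H2-DMb1 held the same X box 92 bases and the Y box 63 bases before its RefSeq start, with 18 bases between them. In the GENCODE annotation both of these boxes lie within the H2-DMb1 gene. H2-Aa had no X box match by these letters, but it held TGACGTCA 74 bases and the Y box 50 bases before the start. Windows were at hand for 4 of the 7 members, and both windows of H2-DMa held none of the 3 motifs. On both strands of all 32851 windows of the same length, 250 bases before and 50 after a start, the Y box was found in 7.82%, TGACGTCA in 1.79%, the X box in 0.137%, and X box and Y box together in 9 windows. The letters were chosen with these sequences in view, and a match is a description and not a binding site.

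In the GENCODE annotation of GRCm38 (mm10) the chain and DM genes lie on chromosome 17, from H2-DMa (chr17:34119541-34139101) and H2-DMb1 (chr17:34153072-34160230) through H2-Ab1 (chr17:34257689-34269419) and H2-Aa (chr17:34282744-34287823) to H2-Eb1 (chr17:34305867-34316674). Cd74 is on chromosome 18 (chr18:60803848-60812652) and Ciita on chromosome 16 (chr16:10480059-10528418). The targeted gene Tnfaip8 also lies on chromosome 18 (chr18:49979427-50107173), and whether this bears on the ratio of Cd74 was not tested. Brd2 overlaps H2-DMa, and Dexi overlaps Ciita, on the opposite strand, and H2-DMb1 has the close relative H2-DMb2, so the counts of these 3 members depend on how the counting assigned reads to strands and to similar genes.

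The WT library held 3402 cells and 38127808 UMIs, and the Tipe0-/- library 2006 cells and 23897126 UMIs, with medians of 7760 and 7307.5 UMIs per cell and 9 cell barcodes that occur in both. Tnfaip8 itself had 372 UMIs, or 9.76 per 1000000 UMIs of the library (CPM), in WT and 57 UMIs, or 2.39 CPM, in Tipe0-/- cells. Mitochondrial genes took 6.59% of UMIs in WT and 8.56% in Tipe0-/- cells. Over all 11665 genes with at least 50 UMIs in the libraries together, the median log2 ratio of Tipe0-/- over WT was 0.15, so a gene at 0 on this scale lay below the typical gene. Cells were grouped into 7 named epithelial classes by markers, of which enterocyte-like cells were the most numerous in WT (940 cells) and goblet-like cells in Tipe0-/- (509 cells). A lymphocyte-like cluster of 91 WT and 16 Tipe0-/- cells stood apart from the epithelium.

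All 7 genes were lower in the Tipe0-/- library. A 3′ library counts 1 end of each molecule, so CPM needs no correction for length, although genes can differ in how well their ends are captured. Cd74 was the most abundant, at 1600.3 CPM in WT (95% Poisson interval 1588 to 1613) and 664 CPM in Tipe0-/- cells (654 to 674), a level 2.41 times as high in WT. H2-Ab1 was found at 486 CPM in WT and 196 CPM in Tipe0-/- cells, H2-Aa at 395 and 137 CPM, and H2-Eb1 at 342 and 139.7 CPM. The 3 chain genes and the invariant chain thus differed by similar factors, and no pair of their intervals came near touching between the libraries. The chains of the peptide loader were less abundant, with H2-DMa at 95.4 CPM in WT and 48.0 CPM in Tipe0-/- cells and H2-DMb1 at 54.3 and 18.3 CPM. Ciita was the scarcest, with 410 UMIs and 10.8 CPM in WT (9.74 to 11.8) and 107 UMIs and 4.48 CPM in Tipe0-/- cells (3.67 to 5.41).

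On the log2 scale the ratios of Tipe0-/- over WT ran from -0.99 for H2-DMa (counting interval -1.09 to -0.89) to -1.56 for H2-DMb1 (-1.72 to -1.42), with a median of -1.29. The regulator Ciita, at -1.26 (-1.58 to -0.95), lay within the range of the genes it switches on. By the rule of a 2-fold or larger difference, 6 of the 7 genes were lower in Tipe0-/- cells, where 2.43% of all genes were, and none was higher, where 1.53% of all genes were. H2-DMa missed the limit narrowly and passed it when the ratios were taken relative to the median over all genes, which gave a median of -1.44 for the 7. When each cell counted equally, as a mean of log-normalized expression, the median difference was -0.87 and 3 of the 7 passed. On that scale, which gives scarce transcripts small values, Cd74 differed by -1.36, H2-DMa by -0.35, H2-DMb1 by -0.31 and Ciita by -0.06, so the place of Ciita among its targets holds for the ratio of sums only.

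Within the epithelium the same held when the lymphocyte-like cells were left out. Over the 3311 WT and 1990 Tipe0-/- epithelial cells the median log2 ratio of the 7 genes was -1.30, and 6 of 7 were lower by 2-fold or more, against 1.77% of all genes. Over the whole library, lymphocyte-like cells included, each class was also given the same weight in WT as in Tipe0-/- cells. The median of the 7 genes was then -1.33, against -1.29 without this weighting. The weighting does not even out the clusters within a class, and the part of cell makeup in the ratio was not tested.

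In WT cells the stem-like cluster, which was led by Lgr5, Ascl2 and Smoc2, had the highest level of Cd74 among the 7 classes, at 2662 CPM (2598 to 2727). Enteroendocrine-like cells followed at 2337 CPM and enterocyte-like cells at 2167 CPM, and the intervals of the latter pair overlapped. Below them came cycling-like cells at 1702 CPM, goblet-like cells at 1441 CPM and tuft-like cells at 1336 CPM, each apart from the next beyond counting error. Paneth-like cells were lowest, at 678 CPM (658 to 698). The order was much the same for H2-Ab1, from 936 CPM in stem-like to 194 CPM in Paneth-like cells. For H2-Aa the first places were exchanged, with 725 CPM in enterocyte-like cells (707 to 743) and 663 CPM in stem-like cells (631 to 696). For H2-Eb1, stem-like cells had 754 CPM and enterocyte-like cells 367 CPM, a level that overlapped with the 359 CPM of cycling-like cells.

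**Figure D1:**
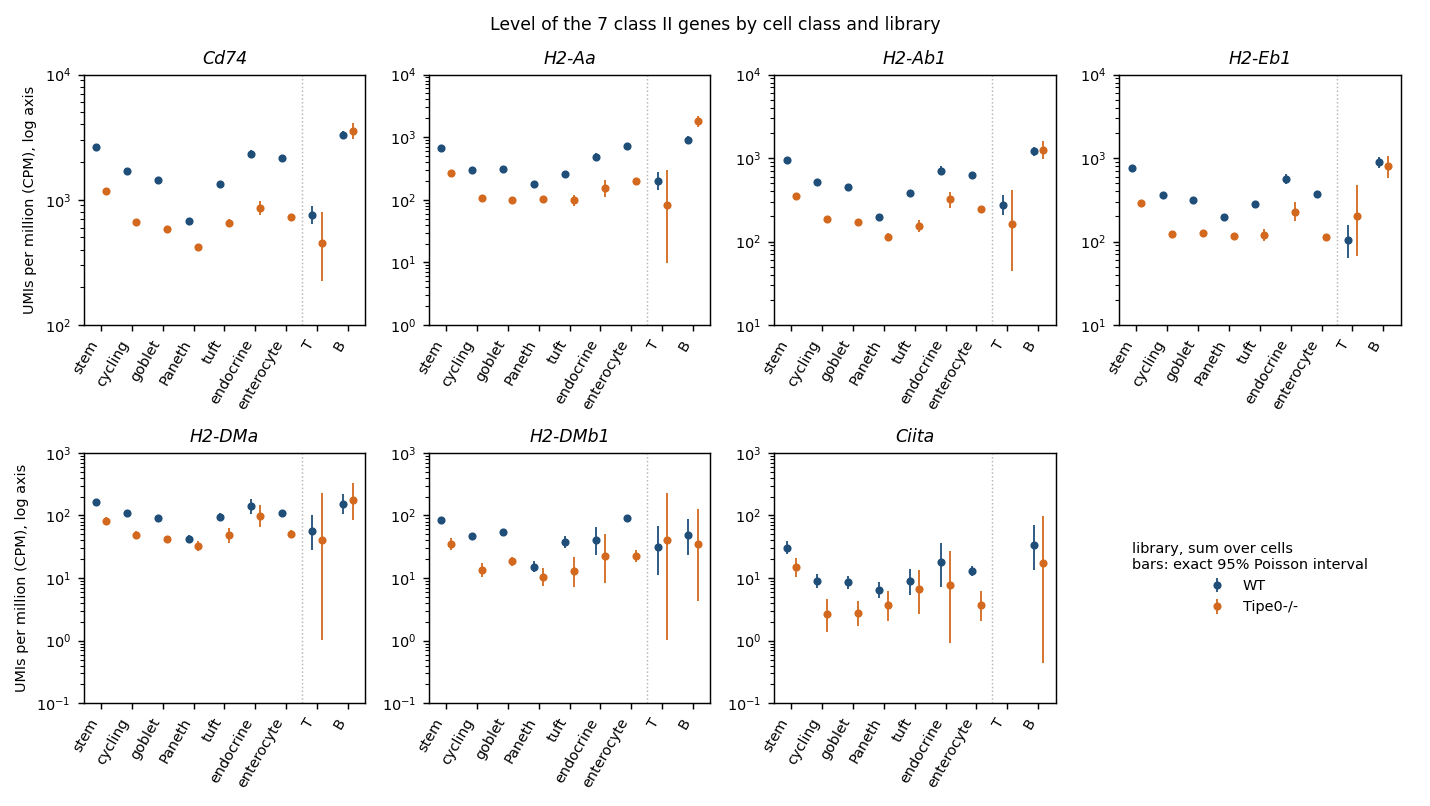
Level of each of the 7 genes, in CPM on a log axis, in 7 epithelial classes and in T-like and B-like cells, with WT in blue, Tipe0-/- in orange and exact 95% Poisson intervals as bars. For Cd74 the WT points run from 678 CPM in Paneth-like to 2662 CPM in stem-like cells and lie above the Tipe0-/- points in every epithelial class, whereas in B-like cells the points lie side by side. A level of 0 (Ciita in T-like cells) has no point.

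Stem-like cells of the Tipe0-/- library had the highest level of Cd74 and of H2-Aa beyond counting error, while for the other 5 genes their interval overlapped with that of enteroendocrine-like cells. For H2-DMa enteroendocrine-like cells came first, at 99.0 CPM against 82.0 CPM in stem-like cells. The Cd74 level of stem-like cells was 1175 CPM (1132 to 1219), against 864 CPM in enteroendocrine-like and 722 CPM in enterocyte-like cells. H2-Aa was at 268 CPM in stem-like and 199 CPM in enterocyte-like cells of this library, the reverse of the WT order between these classes. The enterocyte-like clusters described below did not show this reversal. Those led by Saa1 and Apoa4 lay above stem-like cells in WT (1163 and 1313 CPM) and in Tipe0-/- cells (319 and 387 CPM). Those led by Slc40a1 and Arg2 lay below them in WT (265 and 557 CPM) and in Tipe0-/- cells (45.8 and 111 CPM). These levels are given without intervals, and the cluster shares differed between the libraries. The Tipe0-/- levels of H2-Eb1 in goblet-like, cycling-like, tuft-like, Paneth-like and enterocyte-like cells, between 113 and 126 CPM, differed from their neighbours in the order by less than counting error.

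The ratio between the genotypes was below 0 for each member in each of the 7 classes. The interval reached above 0 for Ciita in tuft-like cells, for Ciita and H2-DMb1 in Paneth-like cells, and for Ciita, H2-DMa and H2-DMb1 in enteroendocrine-like cells. In stem-like cells H2-Ab1 was at 936 CPM in WT and 346 CPM in Tipe0-/- cells, a log2 ratio of -1.43 (-1.55 to -1.32), and the median of the 7 genes was -1.22, with 6 of 7 lower by 2-fold or more against 0.972% of all genes. In cycling-like cells the median was -1.51, and 7 of 7 passed against 0.955%. Goblet-like cells had a median of -1.40, with 7 of 7 against 1.39%. These 3 classes were alike in direction. Enterocyte-like cells showed the lowest median, at -1.70, with 7 of 7 against 1.45%. There H2-Aa was at 725 CPM in WT and 199 CPM in Tipe0-/- cells, a log2 ratio of -1.86 (-1.98 to -1.75), and H2-DMb1 was at 91.2 and 22.8 CPM, a log2 ratio of -1.99 (-2.34 to -1.67).

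Smaller classes gave wider intervals and the same direction. In tuft-like cells, 5 of the 6 genes with enough UMIs were lower by 2-fold or more against 2.98% of all genes, and Cd74 was at 1336 CPM in WT and 652 CPM in Tipe0-/- cells. In enteroendocrine-like cells, of which there were 35 and 20, 4 of 5 measured genes passed against 2.19%. A cluster of 150 WT and 78 Tipe0-/- cells that was led by Lrg1, Akr1c19 and Gsdmc3 and had no name by markers had 5 of 5 against 1.46%.

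Paneth-like cells differed from the other classes in size. Cd74 was at 678 CPM in WT and 416 CPM in Tipe0-/- cells, a log2 ratio of -0.70 (-0.79 to -0.62), and H2-Aa at 178 and 102 CPM, a log2 ratio of -0.80 (-0.97 to -0.63). None of the 7 genes was lower by 2-fold or more, against 0.515% of all genes. The median of all genes in this class was, however, 0.48, the furthest from 0 of any class, and relative to it the median of the 7 genes was -1.23 and 6 of the 7 passed, against 1.62% of all genes. A smaller difference in Paneth-like cells and the scale on which this class was compared cannot be told apart. The intervals of Ciita, with 44 and 14 UMIs, and of H2-DMb1, with 102 and 39 UMIs, reached 0 here.

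**Figure D2:**
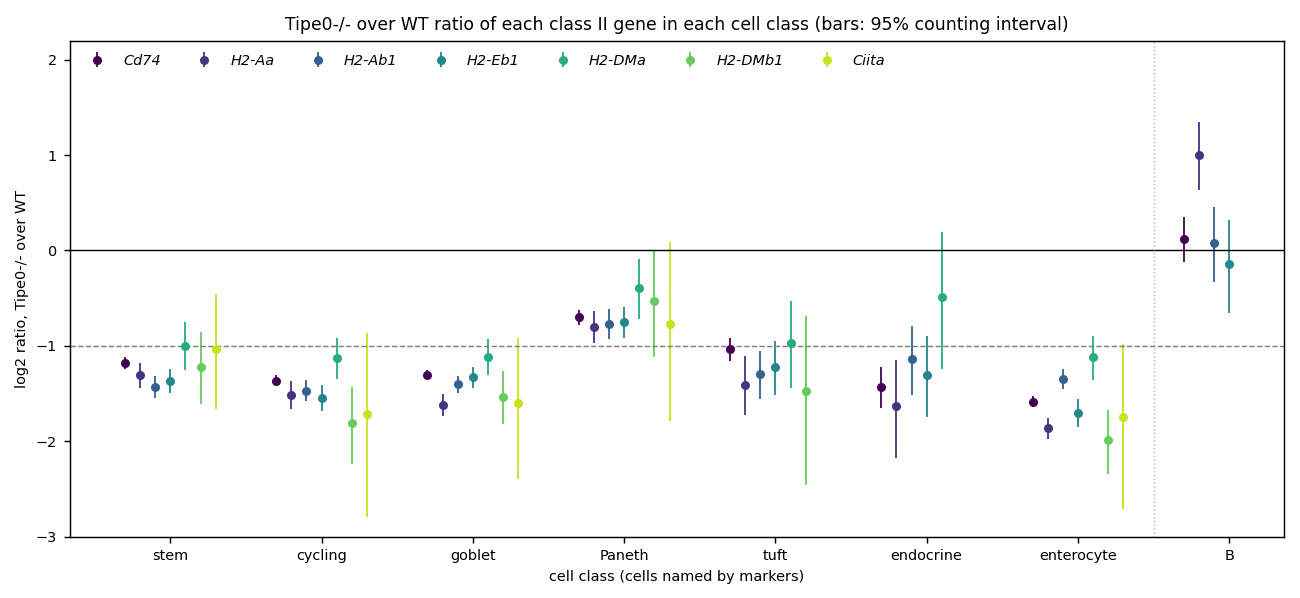
Log2 ratio of Tipe0-/- over WT for each gene in each class, with 95% counting intervals, for genes with at least 50 UMIs in that class in the libraries together. The epithelial classes lie below 0, from a median of -0.75 in Paneth-like to -1.70 in enterocyte-like cells, and the 4 genes measured in B-like cells lie between -0.14 and 1.0. The dashed line is a 2-fold lower level.

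The enterocyte-like class was made of 4 clusters whose shares differed between the libraries, and Cd74 was compared within each. The cluster led by Slc40a1 and Apol10a was named on 3 of 15 enterocyte markers, the least that the rule allows. The other clusters had from 9 to 13. This weakly named cluster, at 9.52% of WT and 8.08% of Tipe0-/- cells, had 1557 CPM of Cd74 in WT and 441 CPM in Tipe0-/- cells. The cluster led by Arg2 and Fabp6 had 2146 and 621 CPM. In both, the Tipe0-/- level was well below that in WT, with log2 ratios of -1.82 and -1.79. Of the remaining clusters, the one led by Saa1 and Sprr2a3 took 11.3% of WT and 3.24% of Tipe0-/- cells, and its Cd74 was at 2656 and 1089 CPM. The one led by Apoa4 took 1.68% and 7.98%, and its Cd74 was at 2892 and 942 CPM. The log2 ratios of Cd74 in these clusters were -1.28 and -1.62, and without both of them the whole-library median of the 7 genes was -1.25. In the Apoa4-led cluster 6 of the 7 genes had ratios below 0, and the intervals of 5 lay below 0. All 7 ratios were below 0 in each of the other enterocyte-like clusters, though only 6 of the intervals were in the Arg2-led one.

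The goblet-like class was made of 3 clusters with different levels. In the cluster led by Creb3l1, Spdef and Dll1, genes of secretory specification, Cd74 was at 1595 CPM in WT and 638 CPM in Tipe0-/- cells. In the larger of the clusters led by Zg16, Fcgbp and Clca1, products of mature goblet cells, with 198 WT and 124 Tipe0-/- cells, it was at 430.0 and 85 CPM, the lowest levels of any epithelial cluster in either library. The log2 ratio of Cd74 there was -2.33 (-2.76 to -1.94). The smaller cluster with these leading genes, which held 63 WT and 35 Tipe0-/- cells, had Cd74 at 1492 and 520.4 CPM, a log2 ratio of -1.52 (-1.76 to -1.29). Cells with products of mature goblet cells were thus not alike in their class II level.

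The make-up of the class II transcripts also varied by cell class, since H2-Aa and H2-Eb1 did not keep 1 proportion. In WT enterocyte-like cells 1.97 UMIs of H2-Aa were counted per UMI of H2-Eb1, against 0.879 in stem-like cells and 0.842 in cycling-like cells. In the villus clusters led by Saa1 and by Apoa4, H2-Aa reached 1163 and 1313 CPM in WT, whereas H2-Eb1 was at 520 and 366 CPM. The proportion was not uniform within classes, since the cluster led by Slc40a1 and Apol10a had 265 CPM of H2-Aa and 218 CPM of H2-Eb1 in WT, and the goblet-like clusters led by Zg16 had more H2-Aa than H2-Eb1, at 97.5 and 50.8 CPM in the larger and 513 and 286 CPM in the smaller. The contrast between enterocyte-like and stem-like cells was also present in the Tipe0-/- library, at 1.76 and 0.918 UMIs of H2-Aa per UMI of H2-Eb1. Cd74 made up 53.7% of the UMIs of the 7 genes in the WT epithelium and 55.1% in the Tipe0-/- epithelium, H2-Ab1 16.3% and 16.2%, H2-Aa 13.2% and 11.2%, and H2-DMa 3.20% and 4.0%.

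Ciita transcripts were rare in each class and followed the same pattern. Stem-like cells had the highest level, though within counting error of the few enteroendocrine-like cells, at 30.7 CPM in WT (24.2 to 38.4) and 14.9 CPM in Tipe0-/- cells (10.4 to 20.6). Enterocyte-like cells had 13.0 and 3.76 CPM, goblet-like cells 8.54 and 2.76 CPM, and cycling-like cells 9.03 and 2.66 CPM. The stem-like level was above each of these classes beyond counting error in both libraries. Per 1000 UMIs of the other 6 genes, the WT epithelium had 3.62 UMIs of Ciita (3.27 to 3.99) and the Tipe0-/- epithelium 3.75 (3.07 to 4.53), so the proportion of the regulator to its targets did not differ beyond counting error. In stem-like cells this proportion was 5.84 in WT (4.6 to 7.31) and 6.78 in Tipe0-/- cells (4.75 to 9.38), and in WT cycling-like cells 2.98 (2.30 to 3.79).

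To see whether fewer cells held the transcripts or each cell held less, every cell was thinned to 3000 UMIs. Cd74 was then found in 91.0% of WT epithelial cells (95% Clopper-Pearson interval 89.9% to 91.9%) and in 70.9% of Tipe0-/- cells (68.8% to 72.8%), and without thinning in 95.4% and 84.9%. Among cells with the transcript, the mean was 5.68 UMIs in WT and 2.83 UMIs in Tipe0-/- cells. H2-Aa was found in 60.1% and 28.4%, H2-Ab1 in 69.3% and 40.3%, and H2-Eb1 in 57.0% and 29.0%. Both the share of cells in which these transcripts were found and the amount of Cd74 per positive cell were thus lower. A lower level in each cell would by itself lower the share of cells in which a transcript is found. These values therefore do not tell fewer cells with the transcripts from less transcript in each cell. Ciita was found in 3.96% of WT and 1.56% of Tipe0-/- epithelial cells.

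Summed over the 7 genes, the median thinned WT epithelial cell held 9 UMIs and the median Tipe0-/- cell 3 UMIs. In stem-like cells the medians were 15 and 6 UMIs, the 10th percentiles 8 and 2 UMIs, and the 90th percentiles 23 and 12 UMIs. None of the 293 WT stem-like cells was without a UMI, against 3.29% of the 243 Tipe0-/- cells. The low, middle and high ends of the stem-like cells were thus all lower. In enterocyte-like cells the medians were 12 and 3 UMIs, and cells with no UMI made up 0.745% of WT and 19.6% of Tipe0-/- cells. In the Apoa4-led cluster of that library the 10th percentile was 0 and the 90th percentile 15 UMIs. In thinned WT enterocyte-like cells the Spearman correlation between Cd74 and H2-Aa over cells was 0.44, a description of sparse counts that share the library and the mix of clusters.

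**Figure D3:**
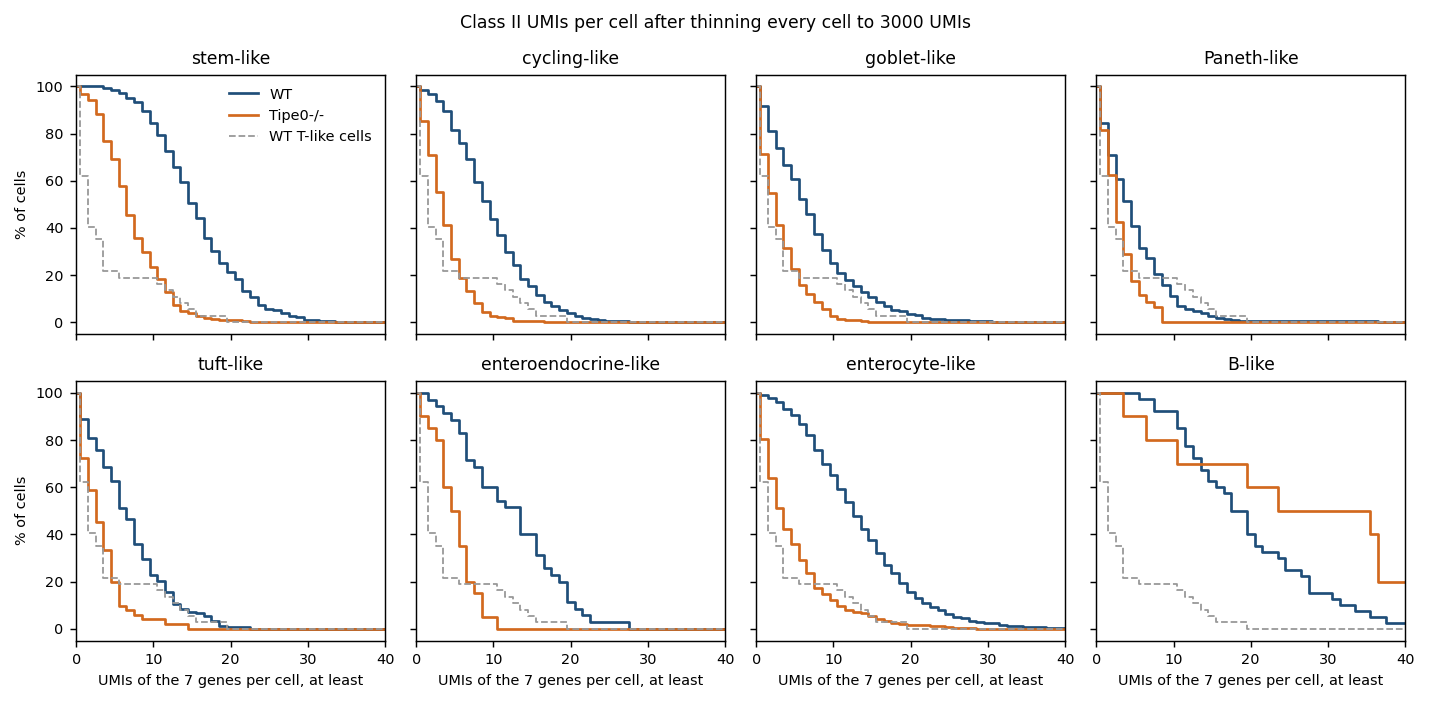
Share of cells, in percent, that hold at least the number of class II UMIs on the x axis (sum of the 7 genes) after thinning to 3000 UMIs, for WT in blue and Tipe0-/- in orange. The grey dashed line in each panel is the 37 WT T-like cells. The stem-like curves are shifted along their whole length, with medians of 15 and 6 UMIs, the enterocyte-like curves have medians of 12 and 3 UMIs, and the B-like curves cross.

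Free RNA in droplets can place class II UMIs in cells that do not make them, and mouse T cells served as the measure of this. Among lymphocyte-like cells, 37 WT and 5 Tipe0-/- cells had a UMI of Cd3d, Cd3e or Cd3g and none of Cd79a, Cd79b or Ms4a1, and are called T-like here. Their Cd74 level was 754 CPM in WT (146 UMIs) and 450.0 CPM in Tipe0-/- cells (11 UMIs) and the WT level (637 to 887) overlapped with that of WT Paneth-like cells. Most of it, however, was in a few cells. Of the 7 WT T-like cells with 10 or more thinned UMIs of the 7 genes, 6 also held a UMI of the epithelial gene Epcam. The 25 WT T-like cells without Epcam had 150.1 CPM of Cd74 (87.4 to 240.4), Cd74 was found in 28.0% of them after thinning (12.1% to 49.4%), and their median was 0 UMIs of the 7 genes.

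The split by Epcam was chosen after the values were seen. Epcam is itself epithelial RNA, found in 3327 of the 3402 WT cells. Leaving out T-like cells that hold it can thus also leave out those with more free RNA. The level without Epcam may therefore lie below the free RNA level. In CPM, the Cd74 of WT Paneth-like cells and the 430.0 CPM of the larger mature goblet-like cluster lay above the level without Epcam. Read against all T-like cells they did not. In that cluster Cd74 was found in 49.0% of WT cells after thinning and in 14.5% of Tipe0-/- cells, and in the smaller one in 98.4% and 62.9%. All 5 T-like cells of the Tipe0-/- library held Epcam, so its free RNA level could not be measured in this way. The median depth of T-like cells was 4274 UMIs in WT and 4330.0 UMIs in Tipe0-/- cells, against 20967 and 26111 UMIs in Paneth-like cells. A given number of free UMIs in a droplet makes a lower CPM in a deeper cell. The comparison of Paneth-like with T-like cells in CPM therefore does not settle how much of the Paneth-like Cd74 was free RNA. As counts, 283 WT Paneth-like cells held 4550 UMIs of Cd74 and 37 WT T-like cells 146 UMIs. The levels of stem-like, enteroendocrine-like, enterocyte-like, cycling-like, tuft-like and goblet-like cells in WT were above either measure for Cd74.

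B cells present antigen by profession and gave the opposite reference. The 40 WT and 10 Tipe0-/- B-like cells, which had a UMI of Cd79a, Cd79b or Ms4a1 and none of the Cd3 genes, had 3276 CPM (3035 to 3532) and 3556 CPM (3082 to 4083) of Cd74. H2-Ab1 was at 1199.7 and 1256 CPM and H2-Eb1 at 887 and 796 CPM. The intervals of these 3 genes overlapped between the libraries. Their log2 ratios were 0.12 (-0.12 to 0.35), 0.07 (-0.34 to 0.45) and -0.14 (-0.66 to 0.32). In epithelial cells the same ratios were -1.28, -1.32 and -1.30. By these intervals, which cover counting error only, the lower level of the epithelium was not seen in the few B-like cells. In the 28 WT and 7 Tipe0-/- B-like cells without a UMI of Epcam, Cd74 had a log2 ratio of 0.59 (0.32 to 0.84) and H2-Ab1 of 0.64 (0.17 to 1.08). Both were higher in Tipe0-/- cells beyond counting error, which leaves out the spread between these few cells. H2-Aa was at 906 CPM in WT (781 to 1045) and 1805 CPM in Tipe0-/- B-like cells (1471 to 2191), a log2 ratio of 1.0 (0.63 to 1.35). Among the 10 Tipe0-/- B-like cells the thinned count of H2-Aa ran from 0 over a median of 5 to 20 UMIs, and 62.5% of it came from 3 cells. For Cd74 and H2-Ab1 the 3 richest of these cells gave 53.8% and 56.8%. The Cd74 level of WT stem-like cells, at 2662 CPM, was below that of WT B-like cells beyond counting error.

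Lymphocyte RNA also moved with the genotype and is given here beside the class II genes. B cell genes, 11 of the 13 listed being in the matrix and all 11 detected in the WT epithelium, summed to 10.2 CPM in WT and 3.91 CPM in Tipe0-/- epithelial cells. If RNA of B-like cells had brought class II transcripts into epithelial cells in the proportion found in B-like cells, 696 of the 60027 WT UMIs of Cd74, or 1.16%, would come from it, and 125 of 15653 in the Tipe0-/- library. Genes of macrophages and dendritic cells were at 14.7 CPM in WT and 16.3 CPM in Tipe0-/- epithelial cells, with Xcr1 at 0 in both and C1qa, C1qb, Adgre1, Flt3, Clec9a and Cd209a also at 0 in the latter. A list of 18 genes that define a presenting cell shared genes with the list before it, among them Xcr1, C1qa and Flt3. It is thus not a separate measure. This 18-gene list was at 10.5 CPM in WT and 4.33 CPM in Tipe0-/- epithelial cells. Its UMIs were found in 7.40% and 3.57% of these cells. When lymphocyte-like cells and every cell with a UMI of a gene that defines a presenting cell were left out, the median log2 ratio of the 7 genes was -1.33. Genes of T cells summed to 45.2 and 15.5 CPM in the epithelial cells, and lymphocyte-like cells took 2.67% of WT and 0.798% of Tipe0-/- cells. Ifng, which encodes interferon gamma, had 8 UMIs in WT, 6 of them in T-like cells, and 1 UMI in Tipe0-/- cells, and its part in the class II levels was not tested.

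The remaining class II genes were scarce. H2-Ob, the beta chain of the DM inhibitor DO, had 47 UMIs in WT and 15 in Tipe0-/- cells, of which 18 and 8 were in B-like cells. H2-DMb2, the second DM beta gene, had 67 and 13 UMIs, of which 28 and 10 were in B-like cells. Their whole-library log2 ratios were -0.94 (-1.92 to -0.11) and -1.65 (-2.67 to -0.82). By the 2-fold rule 1 of these 2 measured genes was lower, against 2.43% of all genes. With both libraries brought to equal class shares, the ratios were -0.06 and -0.54. Within epithelial cells, where both genes were below the limit of 50 UMIs, they were -1.31 and -2.76. The 40 WT B-like cells held 18 UMIs of H2-Ob and the 10 Tipe0-/- B-like cells 8, so the lower whole-library level was not seen per B-like cell. H2-Oa, with 20 and 8 UMIs, and H2-Eb2, with 21 and 3, were below the limit of 50 UMIs.

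Genes of the proteins that hold CIITA on the class II boxes did not share the lower level. Of 8 genes of the RFX, NF-Y and CREB factors, 0 were lower and 0 higher by 2-fold or more, against 2.43% and 1.53% of all genes. At these shares few or none of 8 genes would be. The list median of the log2 ratio was 0.25, against 0.15 for all genes. Nfya, a subunit of the Y box factor, was at 12.4 CPM in WT and 16.9 CPM in Tipe0-/- cells, the highest ratio of the list at 0.45 (0.26 to 0.65). Rfxap, a subunit of the X box factor RFX, was at 17.1 and 16.3 CPM, a log2 ratio of -0.07 (-0.25 to 0.11). Rfx5 was at 5.27 and 6.28 CPM and Rfxank at 5.95 and 4.85 CPM, and the intervals of both ratios held 0. Rfxank, at -0.29 (-0.63 to 0.03), and Rfxap lay below the median of all genes with their whole intervals. The other 6 genes of the list had ratios above that median. Nfyc was at 19.4 and 21.9 CPM, a log2 ratio of 0.18, and Atf1 at 28.9 and 34.6 CPM, a log2 ratio of 0.26.

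Genes that prepare the peptide or the invariant chain were close to the typical gene. None of the 8 measured genes of endosomal processing was lower or higher by 2-fold or more, against 2.43% and 1.53% of all genes. Of the 8, 7 lay below the median of all genes. Ctsb, the protease cathepsin B, was at 177 CPM in WT and 151 CPM in Tipe0-/- cells, a log2 ratio of -0.23, and Ctsd, cathepsin D, at 58.1 and 49.5 CPM, also -0.23. Ctsh was at 24.4 and 30.1 CPM, a log2 ratio of 0.30, and Lgmn, legumain, at 20.6 and 22 CPM. March8, a ligase that removes class II from the surface, was at 32.2 and 34.8 CPM, a log2 ratio of 0.11 (-0.02 to 0.24). Transcripts of the costimulatory ligands that a naive T cell needs were nearly missing, with Cd80 at 1 UMI and Cd86 at 6 UMIs in WT and 0 UMIs of either in Tipe0-/- cells. Cd274, the inhibitory ligand PD-L1, had 78 and 19 UMIs and a log2 ratio of -1.34 (-2.17 to -0.63).

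Class I presentation, which displays peptides of the cytosol to CD8+ T cells, was lower too, but by less. Of its 26 measured genes, 4 were lower by 2-fold or more, against 2.43% of all genes, and 0 higher, against 1.53%. Of the 26, 25 lay below the median of all genes, and the list median was -0.42. B2m was at 1586 CPM in WT and 1100.5 CPM in Tipe0-/- cells, a log2 ratio of -0.53 (-0.55 to -0.51). The lowest ratio was that of H2-Q7, at 35.4 and 10.1 CPM and -1.80 on the log2 scale. Psmb8, a subunit of the immunoproteasome, was at 316 and 131 CPM, a log2 ratio of -1.27, and Nlrc5, the class I counterpart of Ciita, at 8.55 and 3.56 CPM, a log2 ratio of -1.26 (-1.63 to -0.92). At the other end were Pdia3, at 147 and 157 CPM, and Erap1, a trimmer of peptides, at 22.2 and 25.7 CPM.

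Interferon gamma acts through its receptor and JAK kinases on the promoter of Ciita, among others. The receptor gene Ifngr1 was at 64.0 CPM in WT and 79.3 CPM in Tipe0-/- cells, a log2 ratio of 0.31 (0.22 to 0.40). Socs1, a feedback inhibitor that the pathway induces, was at 14.3 and 4.6 CPM, a log2 ratio of -1.63 (-1.95 to -1.34), and Ptpn2, a phosphatase of the pathway, was at 22.6 and 33.1 CPM, a log2 ratio of 0.55. Of the 13 measured genes of this list, 1 was lower by 2-fold or more, against 2.43% of all genes, and the median was -0.12. Among GTPases induced by interferon gamma, 5 of 10 measured genes were lower by 2-fold or more, against 2.43% of all genes, and all 10 lay below the median of all genes. Iigp1 was at 11.6 and 3.01 CPM, a log2 ratio of -1.94, and Igtp at 35.7 and 11.1 CPM, a log2 ratio of -1.68, while Irgm1 was at 35.4 and 27.7 CPM and Ifi47 at 56.8 and 34.3 CPM.

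Genes usually induced by type I interferon were lower as well. Of 15 measured genes, 11 were lower by 2-fold or more, against 2.43% of all genes, and the list median was -1.18. Isg15 was at 72.1 CPM in WT and 18.5 CPM in Tipe0-/- cells, a log2 ratio of -1.96, and Ifi44 at 19.6 and 6.78 CPM. Oas1a, at 17.8 and 11.1 CPM, and Ifi27l2b, at 263 and 192 CPM, had the highest ratios of the better measured genes. The lists were chosen with these data in view and overlap in how their genes are induced, so their counts describe the libraries and do not separate the pathways.

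**Figure D4:**
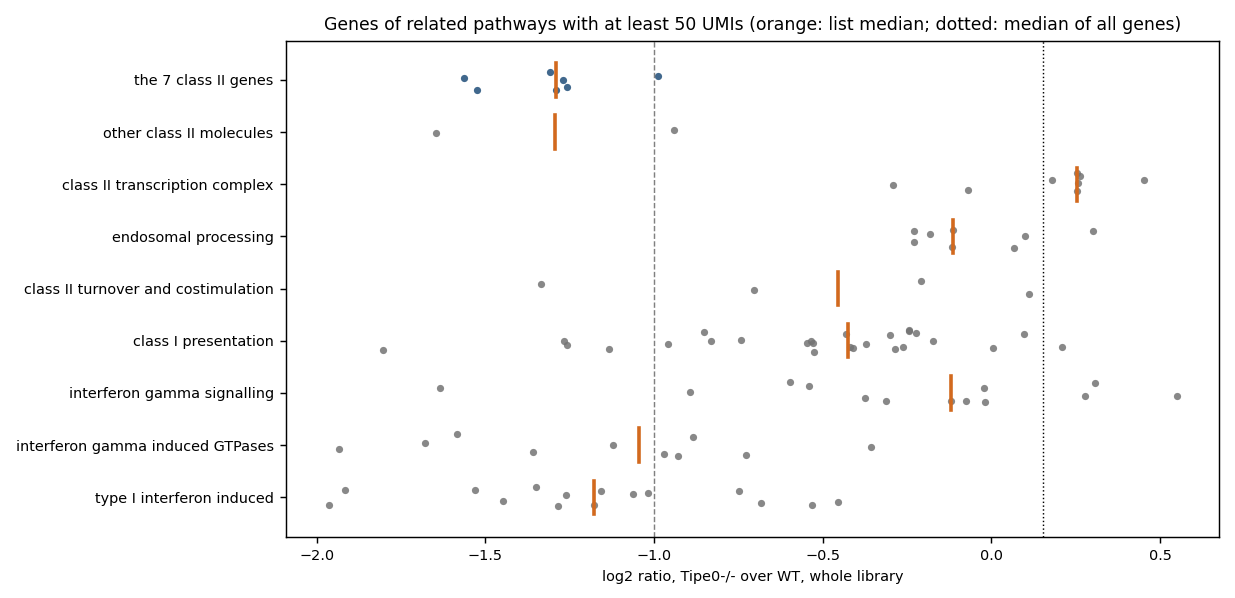
Whole-library log2 ratio of Tipe0-/- over WT for each gene with at least 50 UMIs in 9 lists, with the list median in orange, the median of all genes (0.15) as a dotted line and a 2-fold lower level as a dashed line. The 7 class II genes have a median of -1.29, the list of type I interferon genes -1.18 and the class II transcription complex 0.25.

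The likeness of other genes to the class II genes was measured as the Pearson correlation of log2(CPM + 1) over 16 points, 8 epithelial groups in 2 libraries, with the mean of the members other than the gene itself. Of 7906 genes with at least 500 UMIs, H2-Ab1 (0.979), Cd74 (0.968), H2-Eb1 (0.965), H2-Aa (0.950), H2-DMa (0.946) and H2-DMb1 (0.928) had the highest values, and Ciita had rank 10 with 0.866. The points share libraries, depth and the difference between the genotypes, so the values are a description. The gene outside the list most like it was Igtp (0.908), followed by H2-Q4 (0.880), 2210407C18Rik (0.832) and Iigp1 (0.823). H2-Q7 (0.821), Tmprss4 (0.817), Gm12216 (0.765), Ifi27l2a (0.750) and Gpx2 (0.750) were also among the first 10. Of the first 10 genes outside the list, 7 were also among the first 10 by Spearman correlation. Tmprss4, with 108 CPM in WT and 89.3 CPM in Tipe0-/- cells, and Gpx2, with 1542 and 998 CPM, show that likeness over classes did not require a 2-fold difference between the libraries.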

How the data were processed

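Ileal epithelial cells of 3 mice per genotype were pooled and loaded with 10x Single Cell 3′ v2 chemistry, 1 library per genotype. The labels name collagenase and dispase for digestion and speak of enteroids, and the methods of the study name DNase I and Dispase for isolated epithelium. Cell Ranger and mm10 were used by the authors, who deposited raw UMI counts per gene and cell, with no normalization. From these counts, UMIs were summed per library and cell class and divided by the total (CPM), with exact 95% Poisson intervals. For log2 ratios, Tipe0-/- sums were divided by WT sums after 0.5 was added, and intervals are exact binomial. With 1 library per genotype there is no test between genotypes, and a gene was called lower or higher past 2-fold, among genes with at least 50 UMIs.

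Cells were clustered with Seurat 5.3.0 (R 4.3.3) after the methods of the study (582 variable genes by mean and dispersion, of which 521 remained without genes of the study's genotype comparison and of the lists used here, 14 principal components, resolution 0.8, 15 clusters). Classes were named from markers with the highest mean score and at least 3 enriched markers. Scrublet in Scanpy 1.11.5 called 15 WT and 3 Tipe0-/- doublets, too few to have worked, so no cell was removed and an alternative leaves out the highest 5% of scores. Thinning to 3000 UMIs (numpy 2.4.6, Python 3.11.15) drew without replacement and lost no cell. Ratios were tested on simulated counts with 200 of 11665 genes changed by 2-fold or more. The direction was recovered for 100% of the changed genes with at least 50 simulated UMIs. The simulated counts held counting error only, so this checks the calculation and not the spread between mice or libraries. The members and lists were chosen with earlier results of these data known. Named genes are the members, the measured class II genes, in each other list the 2 lowest and 2 highest ratios among genes with at least 500 UMIs, and the 10 genes of most similar pattern. Of these, 1 gene is not reported here. H2-Oa, H2-Eb2, Rfx5, Rfxank, Cd80, Cd86, Cd274, Ifng, Nlrc5 and B2m were added after their values were seen. Promoter windows are from RefSeq, gene positions from GENCODE. By GENCODE the H2-DMb1 gene starts inside its window, ahead of both boxes, and the stretch is not printed.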

Additional observations from a re-analysis of the deposited data

Results flagged for a closer look

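H2-Aa was singled out in B-like cells, because its interval lay above 0, opposite to the epithelium. The log2 ratio of Tipe0-/- over WT was 1.0 in the 40 WT and 10 Tipe0-/- B-like cells and -1.56 in epithelial cells. The difference between these groups of cells was not tested, since each genotype has 1 library. In the 28 WT and 7 Tipe0-/- B-like cells without a UMI of Epcam, the ratio was 1.63. The direction was not particular to H2-Aa, since Cd74 (0.12) and H2-Ab1 (0.07) were also above 0 in B-like cells, with intervals that held 0, and were at 0.59 and 0.64 without the cells that held Epcam.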

How the results depend on the processing

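The 7 genes had a median whole-library log2 ratio of -1.29, which became -1.44 when scaled by the median ratio over genes and -0.87 as a difference of mean log-normalized expression over cells, where 3 genes instead of 6 passed 2-fold. The other 8 whole-library settings gave medians of -1.25 to -1.35 with 6 or 7 genes. The enterocyte-like median of -1.70 was -1.47 with 2000 variable genes by vst and -1.50 at resolution 0.4, the goblet-like median of -1.40 was -1.50 at resolution 1.2, and the enteroendocrine-like median of -1.30 was -1.74 with cells named singly by their highest marker score. With all variable genes kept, no enteroendocrine-like class was found. H2-Eb1 in B-like cells went from -0.14 to 0.40 without cells that held Epcam, a setting chosen after seeing the data, as were the T-like cells without Epcam and the whole library without the Saa1-led and Apoa4-led clusters. The cause of these changes was not tested. The difference in the share of epithelial cells with Cd74 was -20.1 points with thinning and -10.5 points without. No paired analysis was possible because each genotype has 1 library of pooled mice, and no replicate could be left out. T-like and B-like cells are few, and their levels are limited by counts of 201 UMIs or fewer in Tipe0-/- cells.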
